A study of Rattus norvegicus with 6 samples.

Results

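The genes described here are 10 members of the integrated stress response and the unfolded protein response, measured by RNA-Seq in atrial fibroblasts of the rat. They were chosen by name from the 40154 genes of the deposited gene table, and all 10 were found there. They comprise the transcription factors Atf4, Ddit3, Atf3 and Xbp1, the feedback genes Trib3 and Ppp1r15a, the target genes Asns, Chac1 and Sesn2, and the endoplasmic reticulum (ER) chaperone Hspa5. The question was whether the induction of Eif2ak2, the kinase activated by double-stranded RNA, was accompanied by this programme. The cells were primary Sprague-Dawley fibroblasts from pups 1 to 3 days old, separated from atrial myocytes by preplating, so that both groups share strain, age, culture and transfection. The 2 groups held 3 libraries each, taken 24 h after transfection of a negative-control siRNA (si-NC) or an siRNA against GPD1L (si-GPD1L). Neither the labels nor the methods say whether the 3 libraries of a group came from separate cultures or whether the digit after si-GPD1L marks replicates or different siRNAs, so the p-values measure the spread between these libraries, which may be technical.

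In the integrated stress response, kinases that sense different kinds of stress phosphorylate the translation initiation factor eIF2 alpha. Bulk protein synthesis then falls while translation of Atf4 mRNA rises, and the Atf4 protein turns on genes of amino acid supply and, with Ddit3 (CHOP), genes of cell death. In the unfolded protein response, misfolded protein in the ER activates the kinase PERK, the RNase IRE1, which splices Xbp1 mRNA, and the factor ATF6, and ER chaperones such as Hspa5 (BiP, GRP78) are made. Atf4 protein and the phosphorylation of eIF2 alpha were not measured by these libraries, which count transcripts.

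Promoter sequences from RefSeq (build GRCr8, 250 bases before to 50 bases after the gene start) were matched for 9 of the 10 members and for Eif2ak2. They are shown for the elements that some of these genes carry. The C/EBP-ATF response element, which Atf4 binds, was searched as TGATGNAA, the ER stress element as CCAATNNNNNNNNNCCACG, the cAMP response element as TGACGTCA and the interferon-stimulated response element as GAAANNGAAA, on both strands, and capitals mark the match. Chac1 at chr3:126795954-126795981 (+ strand) and Trib3 at chr3:161275537-161275564 (- strand) each hold a C/EBP-ATF element, read here on the opposite strand, which 4.16% of the 27457 genes with a promoter hold.
Chac1: ttctccgccgTTGCATCActcctgctag
Trib3: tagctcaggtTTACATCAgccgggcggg
Hspa5 at chr3:38452968-38452996 (+ strand) and Xbp1 at chr14:84604553-84604581 (+ strand) hold the full ER stress element, found in 21 of the 27457 genes (0.0765%).
Hspa5: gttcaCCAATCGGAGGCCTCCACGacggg
Xbp1: acaggCCAATCGCAGACGGCCACGaccct
Ppp1r15a at chr1:105139645-105139672 (- strand) holds a cAMP response element (2.0% of genes), and Eif2ak2 at chr6:21941128-21941153 (+ strand) holds an interferon-stimulated response element (4.12% of genes), which none of the 9 members with a promoter holds.
Ppp1r15a: gcctctccggTGACGTCAgcatagcgct
Eif2ak2: agtccgccggGAAAACGAAAcagaga
No match for the 4 motifs was found in these windows of Atf4, Ddit3, Asns and Sesn2. A match is a description of the letters only. Of the other listed Atf4 targets, 12 of 33 with a promoter hold the C/EBP-ATF element, and of the listed ER folding and degradation genes, 7 of 26 hold the ER stress element.

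The libraries held between 16892255 and 20149732 counts. Pairs of replicates varied beyond counting noise (chi-square over its degrees of freedom, 9.01 to 29.9 for si-NC pairs and 4.12 to 6.22 for si-GPD1L pairs), most of all si-NC replicates 1 and 3. A normalized count below is the count scaled to a common library size by edgeR's TMM method. The targeted gene, Gpd1l, had 262, 332.3 and 313 normalized counts in si-NC. The libraries labelled si-GPD1L had 220, 208 and 302.5, a log2 fold change of -0.31 (adjusted p = 0.234, edgeR's quasi-likelihood test), and replicate 3 lay inside the si-NC range. This value moved to -0.50 when that library was left out (adjusted p = 0.0733, edgeR) and to -0.21 when si-GPD1L replicate 2 was (adjusted p = 0.579, edgeR). By TPM, a level per length scaled to a fixed total per library, 10 fibroblast markers summed to 33900 to 43700 in si-NC against 41100 to 44300 in si-GPD1L. Most of this sum was Col1a1 and Col3a1 (means of 16800 and 14800 TPM in si-NC). Of the 10, 2 were lower at an adjusted p under 0.05, Dcn and Lum, and 0 higher (at an unadjusted p under 0.05, 2 higher and 3 lower; edgeR's quasi-likelihood test). Cardiomyocyte markers were also present. The 10 listed summed to 2960 to 3120 TPM (si-NC) and 2750 to 2920 TPM (si-GPD1L), and 0 of them differed at an adjusted p under 0.05 with edgeR's quasi-likelihood test (at an unadjusted p under 0.05, 1 higher and 3 lower; with DESeq2, 1 lower). Macrophage markers summed to 240 to 275 and 226 to 319 TPM, with 0 of 10 past the quasi-likelihood test (1 higher at an unadjusted p under 0.05, 1 higher with the exact test). Endothelial markers summed to 39.3 to 50.4 TPM (si-NC) and 63.5 to 68.5 TPM (si-GPD1L), with 4 of 9 tested markers higher. Smooth muscle and pericyte markers summed to 5330 to 5690 and 5240 to 5430 TPM, with 1 of 8 higher and 1 lower. Most of this last sum was Acta2 and Pdgfrb (means of 4550 and 697 TPM in si-NC). The other markers of that list had means of 3.99 (Kcnj8) to 140 TPM (Cnn1) in si-NC. The paper measured the protein of Acta2, alpha-SMA, in its atrial fibroblasts. Over all genes tested, 4.03% were higher and 2.33% lower at an adjusted p under 0.05, and 22.4% passed an unadjusted p under 0.05 (edgeR's quasi-likelihood test). DESeq2 called 473 of 24928 genes with any count lower, and the exact test called 873 of 14852 higher. No listed marker was at 0 in all libraries. The part of these cells in the values below was not tested, and fewer cells of a type and less RNA per cell cannot be told apart in bulk libraries.

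Eif2ak2, which encodes the double-stranded RNA-activated kinase PKR (chr6:1428845-1466193 in rn6, - strand), was higher in each library labelled si-GPD1L. Its strand in rn6 differs from its strand in the GRCr8 promoter sequence above, and the gene coordinates from here on are those of rn6. It had 896.8, 715.3 and 750.6 normalized counts in si-NC and 2859, 3271 and 3166 in si-GPD1L. The groups were far apart, and the rise was 3.93-fold (95% confidence interval 3.42 to 4.53; adjusted p = 1.4e-08, edgeR's quasi-likelihood test). The other kinases of eIF2 alpha did not pass the test. Eif2ak1 (HRI, the heme-regulated kinase) had 830 ± 54.8 normalized counts in si-NC and 943 ± 30.4 in si-GPD1L (SD, n = 3 each), without overlap of the groups and with an adjusted p of 0.179 from edgeR. Eif2ak3, which encodes the ER stress kinase PERK, had 655 ± 19.4 and 721 ± 53.7 (adjusted p = 0.351, edgeR). Eif2ak4, which encodes GCN2, the sensor of uncharged tRNA, had 648 ± 39.5 and 665 ± 18.9 (adjusted p = 0.827, edgeR).

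Atf4, the central transcription factor of the programme (chr7:121480723-121482781, + strand), did not pass the test. Its normalized counts were 7681, 7023 and 6791 in si-NC and 7155, 7204 and 6958 in si-GPD1L. The si-GPD1L libraries lay within the si-NC range. The fold was 0.992, and its 95% confidence interval reached from 0.888 to 1.11 (adjusted p = 0.947, edgeR's quasi-likelihood test), so a 1.5-fold change of Atf4 mRNA lay outside it.

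Atf3, a factor of the same family that Atf4 and other stress signals induce (chr13:109817892-109849632, - strand), rose, and it was the only one of the 10 members called. It had 107.8, 134.4 and 109.3 normalized counts in si-NC and 166.8, 183.6 and 176.7 in si-GPD1L. Every si-GPD1L library was above every si-NC library, a log2 fold change of 0.59 (1.50-fold, 95% confidence interval 1.22 to 1.85; standard error 0.136, adjusted p = 0.025, edgeR's quasi-likelihood test). It was short of the study's second threshold, a log2 fold change of 1. The raw counts behind it were 109 to 127 (si-NC) and 153 to 202 (si-GPD1L), the fewest of the 10 members. The call ended when any 1 of the si-GPD1L libraries was left out, with adjusted p-values of 0.0726, 0.131 and 0.0761 without replicates 1, 2 and 3, while the log2 fold change stayed between 0.53 and 0.69 without any 1 library.

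Ddit3, which encodes the death-linked factor CHOP (chr7:70578564-70585074, + strand), had 1034, 970.4 and 843.3 normalized counts in si-NC and 999.9, 1293 and 1182 in si-GPD1L. The groups overlapped, since si-GPD1L replicate 1 lay inside the si-NC range while replicates 2 and 3 lay above it. The log2 fold change was 0.29 (95% confidence interval of the fold 1.05 to 1.43), with an unadjusted p of 0.0155 from edgeR's quasi-likelihood test and an adjusted p of 0.119. Without si-NC replicate 1 the adjusted p was 0.0134, and without si-GPD1L replicate 2 it was 0.442 at a log2 fold change of 0.20.

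**Figure D1:**
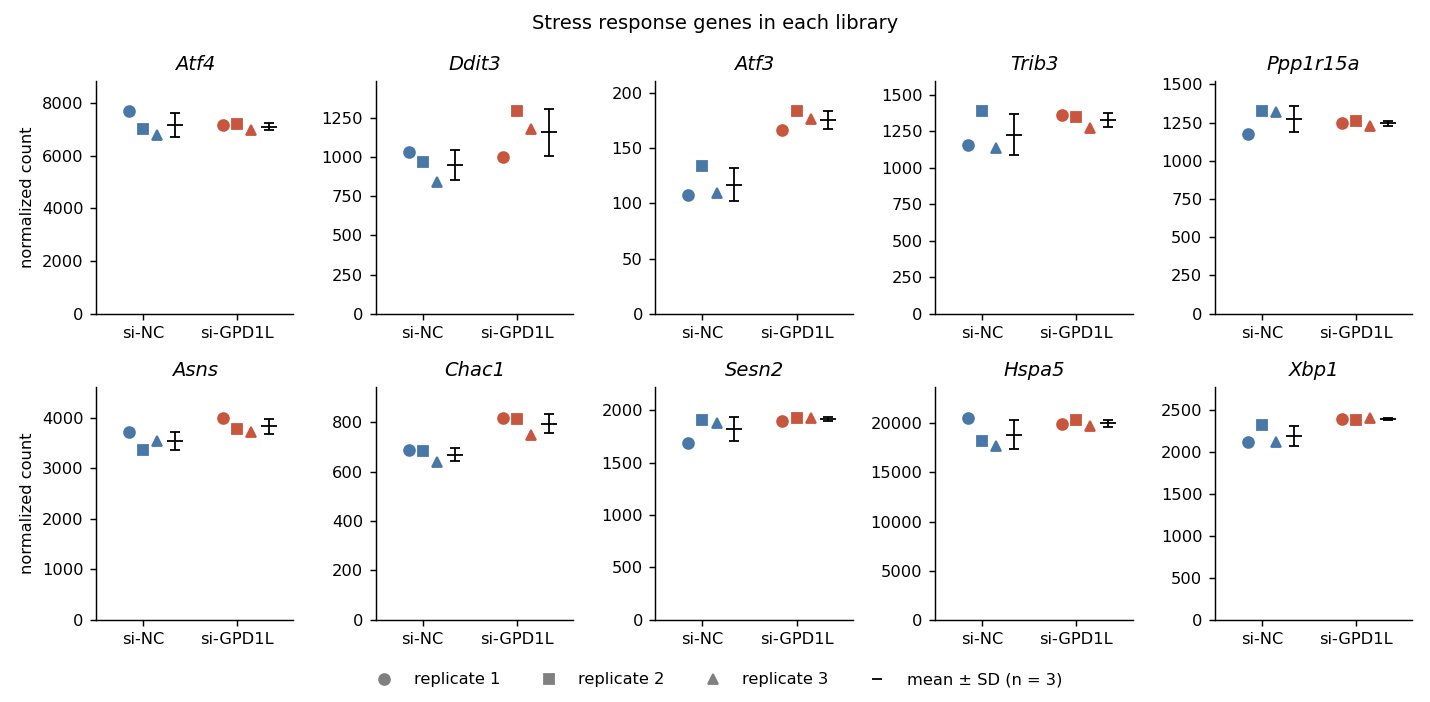
Normalized counts (vertical axes from 0) of the 10 stress response genes in the 3 si-NC libraries (blue) and 3 si-GPD1L libraries (red), with the shape giving the replicate number and the black bar the mean ± SD. In Atf3, Asns, Chac1 and Xbp1 the groups do not overlap, and in Atf4 the si-GPD1L libraries (6958 to 7204) lie within the si-NC range (6791 to 7681).

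The feedback genes did not pass the test. Trib3, a pseudokinase induced by Atf4 and Ddit3 that restrains both (chr3:147814056-147819650, - strand), had 1154, 1388 and 1140 normalized counts in si-NC and 1361, 1349 and 1271 in si-GPD1L. All 3 si-GPD1L libraries fell below si-NC replicate 2 and above the other si-NC libraries (fold 1.08, 95% confidence interval 0.951 to 1.23; adjusted p = 0.47, edgeR). Ppp1r15a, which encodes GADD34, the inducible subunit that directs eIF2 alpha dephosphorylation (chr1:101511899-101515043, - strand), had 1178, 1324 and 1323 in si-NC and 1251, 1262 and 1228 in si-GPD1L. Its si-GPD1L libraries again sat inside the si-NC range (fold 0.978, 95% confidence interval 0.877 to 1.09; adjusted p = 0.84, edgeR).

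Among the target genes, Chac1, an enzyme that degrades glutathione (chr3:111160205-111163425, + strand), was nearest to the threshold. Its normalized counts were 689.2, 682.5 and 638.3 in si-NC and 820.0, 812.6 and 750.7 in si-GPD1L. The groups did not overlap, and the log2 fold change was 0.25 (fold 1.19, 95% confidence interval 1.05 to 1.33; unadjusted p = 0.00804, adjusted p = 0.0822, edgeR's quasi-likelihood test). Without si-NC replicate 1 the adjusted p of Chac1 was 0.0259. Asns, asparagine synthetase (chr4:33742876-33761106, - strand), had 3705, 3352 and 3529 in si-NC and 4000, 3773 and 3707 in si-GPD1L. The lowest si-GPD1L value was barely above the highest si-NC value, and the fold was 1.08 (95% confidence interval 0.974 to 1.21; adjusted p = 0.361, edgeR). Sesn2, a stress-induced inhibitor of mTORC1 (chr5:150684891-150703846, - strand), had 1692, 1905 and 1877 in si-NC and 1898, 1932 and 1924 in si-GPD1L. Replicate 1 of si-GPD1L lay inside the si-NC range and the other 2 lay just above it (fold 1.05, 95% confidence interval 0.946 to 1.17; adjusted p = 0.59, edgeR).

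The genes of the ER branch did not pass the test either. Hspa5 (chr3:13838304-13842763, + strand) had 20590, 18250 and 17740 normalized counts in si-NC and 19890, 20360 and 19740 in si-GPD1L. Replicate 1 of si-NC was above all si-GPD1L libraries and the other si-NC libraries were below them (fold 1.06, 95% confidence interval 0.940 to 1.20; adjusted p = 0.579, edgeR). Without si-NC replicate 1 the log2 fold change was 0.15 (adjusted p = 0.056). Xbp1 (chr14:85753736-85758820, + strand), the factor activated by IRE1 splicing, had 2123, 2328 and 2128 in si-NC and 2403, 2391 and 2415 in si-GPD1L. The groups did not overlap and the fold was 1.10 (95% confidence interval 0.990 to 1.21; adjusted p = 0.273, edgeR).

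The transcript table lists Xbp1 in a longer form and in a form 26 bases shorter, the length of the segment that IRE1 is known to remove. Reads that fit both forms were counted on both, so only reads that crossed the segment tell them apart. The longer form received 100% of the gene's count in each library. The percentages below are therefore not the share of spliced mRNA, which these counts do not give. The shorter form received 88.1%, 87.2% and 85.4% of the count of the longer form in si-NC and 86.3%, 88.0% and 85.2% in si-GPD1L. The ranges overlapped, with means of 86.9% ± 1.41 and 86.5% ± 1.44 (SD, n = 3 each) and a two-sided exact permutation p of 0.70, where 0.10 is the smallest that 3 against 3 libraries allow. Of the 16 listed transcripts of the 10 members, 1 was called, the single transcript of Atf3 (log2 fold change 0.57, adjusted p = 0.0285 over all transcripts tested, edgeR's quasi-likelihood test), against 5.89% of transcripts called in all. That call ended without si-NC replicate 3 or any 1 of the si-GPD1L libraries. The 4 listed Ddit3 transcripts, which share most reads, had log2 fold changes of 0.27 to 0.28.

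Over the 10 members, 1 was called higher and 0 lower at an adjusted p under 0.05 (edgeR's quasi-likelihood test), and over the 14852 genes tested 4.03% were called higher and 2.33% lower. The 1 call among 10 genes therefore stands beside a background of 6.36% in either direction. The count of lower members was also 0 with edgeR's exact test and with DESeq2, and 0 members were lower at an unadjusted p under 0.05. At an unadjusted p under 0.05, 3 members (Atf3, Chac1 and Ddit3) were higher, where 22.4% of all genes passed in either direction and 11.4% were higher. With the study's second threshold, an absolute log2 fold change over 1, 0 members were called against 1.62% of all genes. The groups did not overlap in 4 members (Atf3, Asns, Chac1 and Xbp1), all higher in si-GPD1L, where 15.1% of all genes were higher without overlap. The log2 fold change was above 0 in 8 members, with a median of 0.11 and a range of -0.03 (Ppp1r15a) to 0.59 (Atf3). The median over all genes tested was -0.0049, and 49.1% were above 0. The upper ends of the 95% confidence intervals of the members' folds ran up to 1.85 (Atf3) and stayed at 1.43 or less in the other 9 members, while the interval of Eif2ak2 began at 3.42.

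**Figure D2:**
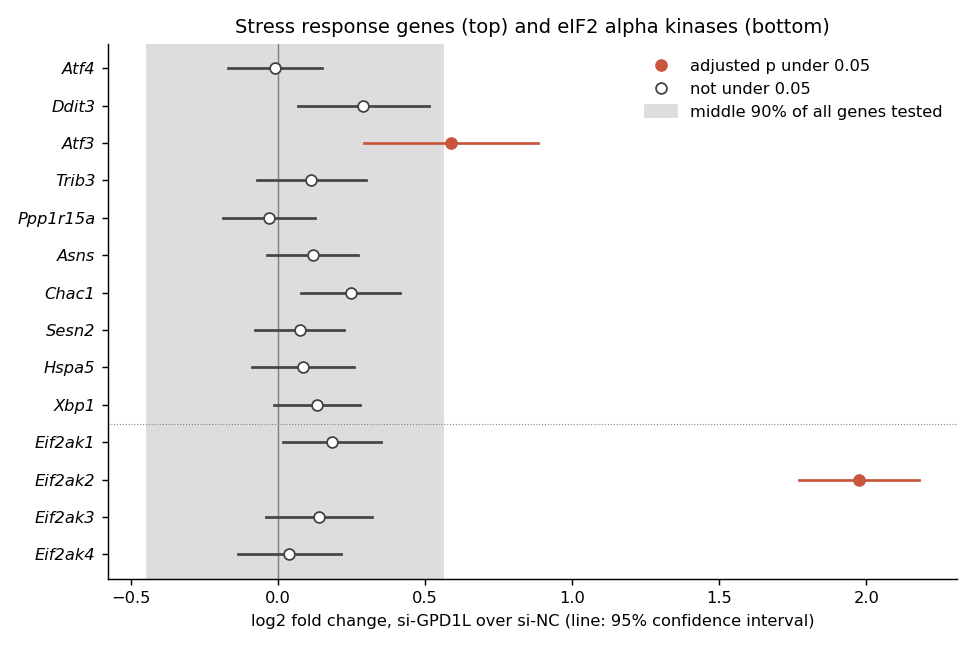
Log2 fold change of si-GPD1L over si-NC (horizontal axis) with its 95% confidence interval (line) for the 10 stress response genes above the dotted line and the 4 eIF2 alpha kinases below it. Filled red points passed an adjusted p of 0.05, and the grey band holds the middle 90% of all genes tested (-0.45 to 0.56). Atf3 (0.59) and Eif2ak2 (1.98) lie outside the band.

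The members differed in how they varied between libraries of 1 group. In si-NC, Atf4, Hspa5, Ddit3, Asns and Chac1 were highest in replicate 1, while Sesn2, Ppp1r15a, Atf3 and Xbp1 were lowest there. The coefficient of variation of the normalized counts was 4.12% (Chac1) to 12.8% (Atf3) in si-NC. In si-GPD1L it was 0.485% (Xbp1) to 12.8% (Ddit3), with at most 4.80% in the members other than Ddit3. Expressed as log2 deviations from the si-NC mean, the median member stood at 0.11, 0.12 and 0.075 in si-GPD1L replicates 1, 2 and 3, and it stood at -0.0020, 0.047 and -0.072 in the si-NC libraries. In the same si-GPD1L libraries Eif2ak2 stood at 1.87, 2.06 and 2.01.

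TPM values can be compared between genes as far as the gene lengths used hold. On this scale transcripts of each member were present in si-NC, whose cells also received an siRNA. No untransfected library was measured, so a response to transfection that both groups share cannot be told from the usual level. Hspa5 had the highest level (939 ± 29 TPM, SD, n = 3), followed by Atf4 (649 ± 10.4), Asns (170 ± 5.79), Xbp1 (153 ± 12.7), Trib3 (110 ± 15), Sesn2 (86.3 ± 9.35), Ppp1r15a (77.9 ± 8.69), Ddit3 (60.0 ± 4.05), Chac1 (54.6 ± 1.90) and Atf3 (7.94 ± 1.21). The ranges of neighbours overlapped for Asns and Xbp1, Sesn2 and Ppp1r15a, and Ddit3 and Chac1, and did not for the other neighbours. Eif2ak2 had 22.3 ± 1.70 TPM in si-NC and 93.5 ± 7.0 in si-GPD1L, below Ddit3 in the first group and above it (77.8 ± 10.4) in the second. The deposited TPM of Ddit3 used a length of 2020 bases, but a listed transcript of 861 bases received 98.8% to 99.5% of the Ddit3 count. Over the shorter length the Ddit3 TPM would be higher. The place of Ddit3 in this order, and beside Eif2ak2 in si-GPD1L, therefore depends on the length used.

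The deposited TPM placed the si-GPD1L libraries somewhat higher than the normalized counts did. The median log2 ratio of si-GPD1L to si-NC over all genes tested was 0.078, and that of the members was 0.20. The groups did not overlap in 8 of the 10 members, all higher in si-GPD1L, where 23.0% of all genes were. Atf4 was among them, with 659.1, 649.8 and 638.2 TPM in si-NC and 683.4, 696.1 and 670.2 in si-GPD1L, and so were Hspa5 (917.2 to 972.1 against 1045 to 1082 TPM) and Sesn2 (75.5 to 91.8 against 94.3 to 97.2 TPM). With limma on log2(TPM + 1), a scale chosen after seeing the data, 2 members were called, Atf3 (adjusted p = 0.022) and Chac1 (log2 fold change 0.32, adjusted p = 0.0269). Atf4 and Ppp1r15a, below 0 on normalized counts, were at 0.074 and 0.054 on this scale (adjusted p = 0.454 and 0.749, limma). Over all genes 625 of 756 calls (82.7%) were then higher in si-GPD1L, against 599 of 945 (63.4%) from the counts.

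The other genes of these pathways were taken from lists by role, the eIF2 alpha kinases included. Of the 107 of these 108 genes that were tested, 7 were called, Eif2ak2 among them (6.54%, beside 6.36% of all genes). Without si-NC replicate 1, 24 of the listed genes were called, in a fit that called 1531 of 15182 genes. Without si-NC replicate 2 or any 1 of the si-GPD1L libraries, 2 to 4 of them were called. Of 37 tested Atf4 targets, which comprise genes of amino acid synthesis, transport and tRNA charging as well as transcription factors and other stress-induced genes, 3 were higher and 1 lower, where 4.03% and 2.33% of all genes were. The median log2 fold change was 0.091, with 28 of the 37 above 0 (49.1% of all genes) and 16 higher without overlap of the groups (15.1% of all genes). Gpt2, a mitochondrial alanine aminotransferase, rose from 1183 ± 28.5 to 1585 ± 159 normalized counts (SD, n = 3 each; log2 fold change 0.42, standard error 0.0809, adjusted p = 0.00873, edgeR). Slc7a1, a cationic amino acid transporter, rose by 0.37 on the log2 scale (adjusted p = 0.0249, edgeR) and Slc1a5, a glutamine transporter, by 0.30 (adjusted p = 0.0222, edgeR). Cebpb, a partner of Atf4 that is itself induced by stress, went the other way, from 1882 ± 217 to 1346 ± 40.0 (SD, n = 3 each; log2 fold change -0.48, adjusted p = 0.00513, edgeR). The most abundant targets did not pass the test: Atf5, another stress-induced factor (log2 fold change 0.047), Slc3a2, the heavy chain of amino acid exchangers (0.11), and Eprs, a tRNA synthetase (0.10). Without si-GPD1L replicate 1 the adjusted p of Gpt2 was 0.0635, and the calls of Slc7a1 and Slc1a5 each ended without any 1 of the si-GPD1L libraries or without si-NC replicate 2. The call of Cebpb held in each fit to counts and was lost with limma on log2(TPM + 1) (adjusted p = 0.058).

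Of 34 genes of ER folding and degradation, 1 was higher and 0 were lower, so 2.94% of them were called beside 6.36% of all genes. The median log2 fold change was 0.059, with 24 of the 34 above 0 (49.1% of all genes) and 12 higher without overlap (15.1% of all genes). Edem2, which helps to hand misfolded glycoproteins to degradation, rose from 308 ± 2.99 to 402 ± 18.6 normalized counts (SD, n = 3 each; log2 fold change 0.39, adjusted p = 0.0257, edgeR). At an unadjusted p under 0.05 from edgeR's quasi-likelihood test, 6 genes of this list were higher and 1 was lower. Of all genes 11.4% were higher at that threshold, and 22.4% passed it in either direction. DESeq2 called 2 of the list higher and 1 lower, and it called 634 higher and 473 lower of 24928 genes with any count. The abundant folding genes did not pass the test, with log2 fold changes of 0.061 for Calr (calreticulin), 0.19 for P4hb (protein disulfide isomerase) and 0.090 for Pdia3, another disulfide isomerase. P4hb was called with DESeq2 (adjusted p = 0.0416), and both P4hb and Pdia3 were called without si-NC replicate 1 (adjusted p = 0.0231 and 0.0448, edgeR). That last fit called 9 genes of this list and 1531 of 15182 genes in all. Without si-NC replicate 2 or any 1 of the si-GPD1L libraries, 0 genes of this list were called. Of 10 ER stress sensors and related membrane factors, 1 was higher and 0 were lower, where 4.03% and 2.33% of all genes were. It was Creb3l2, a membrane-bound factor cleaved like ATF6, which went from 1833 ± 330 to 2484 ± 125 normalized counts (SD, n = 3 each; log2 fold change 0.44, adjusted p = 0.0372, edgeR). Creb3l1, Creb3 and Rtcb, the ligase that joins spliced Xbp1 mRNA, had log2 fold changes of 0.14, -0.0083 and -0.056. The calls of Edem2 and Creb3l2 each ended without any 1 of the si-GPD1L libraries or without si-NC replicate 2, with adjusted p-values of up to 0.150 and 0.166.

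Of 13 genes of eIF2, eIF2B and the eIF2 alpha phosphatase, 0 were called by edgeR's quasi-likelihood test, with 1 higher and 4 lower at an unadjusted p under 0.05, which 22.4% of all genes passed in either direction. In this list edgeR's exact test called 2 lower and DESeq2 called 3 lower. Over all genes the exact test called 655 of 14852 lower, and DESeq2 called 473 of 24928 genes with any count lower. Eif2s1, which encodes eIF2 alpha itself, had 2287, 1713 and 1674 normalized counts in si-NC and 1760, 1751 and 1786 in si-GPD1L. The first si-NC library stood alone above the rest (log2 fold change -0.10, adjusted p = 0.628, edgeR), and without it the log2 fold change was 0.059. Eif2s2, the beta subunit, showed the same order, with 5626 in si-NC replicate 1 and 3916 to 4281 in the other 5 libraries. Ppp1ca, a catalytic phosphatase subunit, had a log2 fold change of 0.065. Of 10 death genes linked to Ddit3, 0 were called by edgeR's quasi-likelihood test, by edgeR's exact test and by DESeq2, with 2 higher and 2 lower at an unadjusted p under 0.05 in the first (22.4% of all genes in either direction). Bax, Mcl1 and Casp12, an effector, a survival factor and an ER-linked caspase, stood at -0.068, -0.14 and 0.24 on the log2 scale (adjusted p = 0.663, 0.219 and 0.235, edgeR). Without si-NC replicate 1 Casp12 was called, at 0.41 (adjusted p = 4.48e-04, edgeR).

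**Figure D3:**
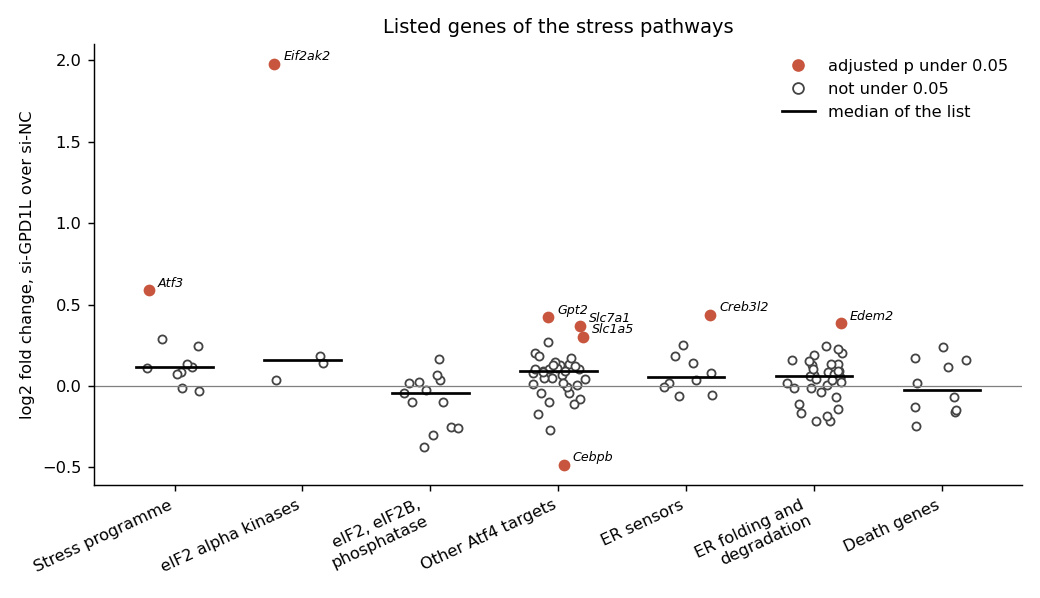
Log2 fold change of si-GPD1L over si-NC (vertical axis) of every tested gene in the stress programme and in 6 lists of related genes, with filled red points for an adjusted p under 0.05 and a black line at each median. Apart from Eif2ak2 (1.98), all genes lie between -0.48 (Cebpb) and 0.59 (Atf3).

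The number of members called moved with single libraries. It was 0 without any 1 of the si-GPD1L libraries and 1 without si-NC replicate 2 or 3. It was 3 without si-NC replicate 1, when Atf3, Ddit3 and Chac1 were called. In that fit 1531 of 15182 genes were called in all, against 945 of 14852 with all libraries. Asns, Hspa5, Sesn2, Trib3, Xbp1, Atf4 and Ppp1r15a had an adjusted p above 0.05 in each fit tried, with the lowest at 0.056 for Hspa5. Eif2ak2 was called in each, with log2 fold changes of 1.91 to 2.08.

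**Figure D4:**
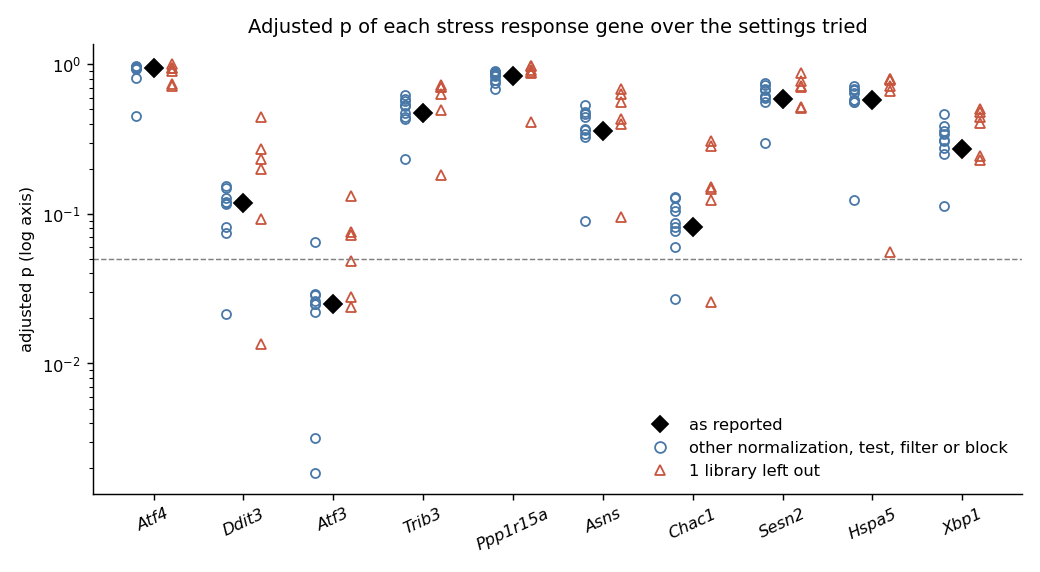
Adjusted p (vertical log axis) of each of the 10 stress response genes as reported (black diamond), with another normalization, test, filter, scale or replicate block (blue circles) and with 1 library left out (red triangles), against the threshold of 0.05 (dashed line). Atf3 lies on both sides of the line, Ddit3 and Chac1 fall below it in 2 alternatives each, and the other 7 genes stay above it.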

How the data were processed

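RNA-Seq counts came from 6 libraries of rat atrial fibroblasts, 3 si-NC and 3 si-GPD1L. The authors deposited counts of reads per gene and per transcript, without normalization. They also deposited TPM, which equalled the counts over gene length within 4.91e-11. The submitters' processing notes name HISAT2 2.1.0, HTSeq 0.12.4 and rn6, and the strand setting is not given in the sources used here. Transcript totals (40992579 to 49099497) exceeded gene totals, so isoforms share reads. The authors' own comparison and enrichment tables hold fold changes, p-values and q-values and were not used. With R 4.3.3 and edgeR 4.0.16, genes were kept by filterByExpr, normalized by TMM and compared by the quasi-likelihood F test with Benjamini-Hochberg adjustment over all genes tested. Standard errors are the log2 fold change over the square root of F, and 95% confidence intervals use the fit's degrees of freedom. Alternatives were DESeq2 1.42.0 (size factors and Wald test), upper-quartile factors, edgeR's exact test, filters of 1 count in any or 10 counts in every library, the replicate block, each library left out, transcript counts summed to genes and, added after the data were seen, limma 3.58.1 on log2(TPM + 1). The tests were also run on simulated data, in which the planted changes were larger than those of most members. That run does not show whether changes as small as theirs would be called. Besides the members, the eIF2 alpha kinases and Gpd1l, genes were named as at most 4 rises and 4 falls of smallest adjusted p per list and the 3 of highest mean TPM. The members and lists were chosen with earlier results of these data known. Figures were drawn with matplotlib 3.10.9.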

Additional observations from a re-analysis of the deposited data

How the results depend on the processing

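The number of genes called (945) was 1528 with edgeR's exact test, 1929 with a filter of 1 count in any library, 623 with transcript counts summed to genes, and 361 to 1531 with 1 library left out (1531 and 1451 without si-NC replicates 1 and 3, 550 without si-NC replicate 2, and 366, 361 and 591 without si-GPD1L replicates 1, 2 and 3). The number of members called (1) was 2 with the filter of 1 count (Atf3 and Ddit3), 2 with limma on log2(TPM + 1), 0 with summed transcript counts (Atf3, adjusted p = 0.0647) and 0 to 3 with 1 library left out. The number called in the related lists (7 of 107 tested, Eif2ak2 included) was 14 with DESeq2's Wald test, 13 with the filter of 1 count, 4 with summed transcript counts and 2 to 24 with 1 library left out (24 and 11 without si-NC replicates 1 and 3, 4 without si-NC replicate 2, and 2, 3 and 3 without si-GPD1L replicates 1, 2 and 3). By list, calls ran from 0 to 4 for eIF2 and its control genes, 1 to 9 for Atf4 targets, 0 to 1 for ER sensors, 0 to 9 for ER folding and degradation and 0 to 1 for death genes. The number of member transcripts called (1) was 0 to 6 with 1 library left out (6 without si-NC replicate 1, 1 without si-NC replicate 2, and 0 without any 1 of the others). Fits without a library hold fewer samples, and otherwise the cause was not tested. The kinases kept 1 call, Eif2ak2, in all 15 alternatives.

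The replicate numbers gave no pairing: deviations of same-numbered libraries correlated at -0.0116, -0.00586 and 0.0434. With the replicate number as a block, 921 genes, 1 member (Atf3) and 7 related genes were called, so the block moved none of these counts by over 1.5 times.

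Directions that turned were all of named genes that were not called. With 1 library left out the log2 fold changes ranged from -0.050 to 0.040 (Atf4), -0.013 to 0.068 (Eif2ak4), -0.20 to 0.084 (Eif2s2), -0.18 to 0.059 (Eif2s1), -0.033 to 0.021 (Creb3), -0.12 to 0.020 (Rtcb) and -0.0096 to 0.10 (Atf5). The turned value came without si-NC replicate 1, except Atf5 (without si-NC replicate 3), and Atf4 (0.0003) and Creb3 (0.015) turned without si-GPD1L replicate 3 too. With limma on log2(TPM + 1) they were 0.074 (Atf4), 0.054 (Ppp1r15a), 0.0065 (Eif2s2), 0.076 (Creb3), 0.030 (Rtcb) and 0.019 (Bax). Depth limits Atf3 most, with 109 to 202 raw counts per library.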
